A study of Mus musculus with 2 samples.

Results

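The microRNA cluster inside Sfmbt2 was examined in the gastrocnemius, the large calf muscle of the mouse. Its members were all microRNA genes of the GENCODE M21 annotation that start within or close to Sfmbt2 on chromosome 2 of mm10, which gave 119 of the 2202 microRNA genes counted. By name, 14 were Mir467 genes, 29 Mir669, 23 Mir466 and 5 Mir297, and 48 carried only a Gm identifier. Small RNA under 30 bases had been sequenced from male adults of the strain labelled 5xFAD/CAST, aged 8 to 10 months, in 2 libraries of 1 group. The name 5xFAD refers to a transgenic amyloid model of the brain and CAST to a wild-derived inbred strain, and the labels leave out whether these animals carried the transgene. The libraries are numbered biological replicates 1 and 2. They are separate tissue samples under a common donor record, so their spread may be technical in part. There was no second condition, so the questions were which members yielded reads and how closely the libraries matched.

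MicroRNAs are cut from hairpin precursors, and each mature strand recognises target messages mainly through its seed, bases 2 to 8. Sfmbt2 encodes a Polycomb group protein. In the mouse it is known as an imprinted gene expressed from the paternal copy in placental and other extraembryonic tissue, and the microRNA cluster in its intron is specific to rodents and has been studied for its part in placental growth. The cluster arose by tandem duplication, so that many hairpins are copies of each other.

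All 119 members lay on the plus strand, the strand of Sfmbt2 (ENSMUSG00000061186.15, chromosome 2 from 10370510 to 10595253). They spanned 10465287 to 10518279, a stretch of 52993 bases, and none touched an annotated exon of Sfmbt2. In the 2 annotated transcripts that cross this stretch all 119 fell in 1 intron, from 10461473 to 10523944. It is intron 10 of the first transcript and intron 11 of the second, which has a further exon upstream.

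Of the 8 relatives outside the cluster with a mature sequence in the set used here, 5 are shown to display the repeat-rich make-up of the families. They were chosen as those with the longest runs of bases recurring in members, and they are mature sequences from RefSeq on GRCm38.p6, each 5′ to 3′, with the seed in capitals.
mmu-miR-466j: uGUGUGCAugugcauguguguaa
mmu-miR-466k: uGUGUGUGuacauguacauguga
mmu-miR-466i-3p: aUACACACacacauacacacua
mmu-miR-669n: aUUUGUGUguggaugugugu
mmu-miR-467h: aUAAGUGUgugcauguauaugu

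They lie on the plus strand, miR-466j at chr10:60960802-60960824, miR-466k at chr3:85467396-85467418, miR-466i-3p at chr13:17747552-17747573, miR-669n at chr3:115979905-115979924 and miR-467h at chr9:115381898-115381919. These 5 seeds all differ, and the hairpins of the cluster held long stretches of the sequences. A run of 22 of the 23 bases of miR-466j recurred in 10 members and a run of 22 of the 23 bases of miR-466k in 9, the Mir466b copies among them. For miR-466i-3p a run of 21 of its 22 bases was found in Mir466f-2, and for miR-669n a run of 18 of its 20 bases in Mir669c. The miR-467h sequence shared a run of 18 of its 22 bases with Mir669l, Mir669d and Mir669d-2, and its 7-base seed occurred in the hairpin of 1 member, Mir467e. The seed of miR-466j, by contrast, occurred in 62 members. The 3 relatives not shown had shorter runs in members, 15 of 20 bases for miR-466q, 16 of 21 for miR-467g and 14 of 21 for miR-467f. None of the relatives had a counted read: all 10 Mir297, Mir466, Mir467 and Mir669 genes elsewhere in the genome (Mir297-1, Mir466f-4, Mir466i, Mir466j, Mir466k, Mir466q, Mir467f, Mir467g, Mir467h and Mir669n) stood at 0 in both libraries. Only reads that aligned to 1 place were counted, so these counts of 0 do not cover reads that also fit a member.

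The hairpins of the members stood apart in base composition from those of other microRNA genes. Their median GC content was 37.3%, from 29.0% to 43.4%, against a median of 51.7% for the other 2083 genes. The motif TGTGTG, searched on both strands, was found in 115 of 119 members (96.6%), against 15.1% of the other genes and 19.5% of all microRNA hairpins. Median hairpin length was 98 bases in the cluster and 89 elsewhere.

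Copy number within the cluster was read from the annotated hairpins. Of the 119 members, 47 had a hairpin identical to that of at least 1 other member, and the cluster held 88 distinct hairpins in all. The largest identical group was Mir669a-4 to Mir669a-12, with 9 genes. Next came 7 identical genes, Mir467a-2, Mir467a-4, Mir467a-5, Mir467a-7, Mir467a-8, Mir467a-9 and Gm25022, followed by 3 groups of 3 identical genes, which were Mir467a-3, Mir467a-6 and Mir467a-10, then Mir466b-4, Mir466b-6 and Gm25943, and then Gm25701, Gm26431 and Gm24488. In the block from Mir467a-1 to Mir467a-10, 27010 bases with 65 members, the Mir467a and Mir467b genes recurred at a regular distance. The 9 intervals between neighbouring copies ran from 2413 to 2470 bases with a median of 2452, and the remaining interval of 4880 bases holds Gm25022. The limits of this block were chosen after the counts were seen.

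The files count a read only where it aligned to 1 place. Replicate 1 held 6119818 reads, of which 18.9% were counted in microRNA genes on the gene's strand and 60.2% aligned to several places. For replicate 2 the values were 6632802 reads, 18% and 63.2%. Levels are CPM, counts scaled to a common library total, over the 1157420 and 1193393 reads counted on the gene's strand, and they were not divided by hairpin length, since the reads are of mature size. The muscle marker list (Mir206, Mir486, Mir499, Mir208b, and the Mir1a and Mir133 loci) held 38700 and 37310 CPM in replicates 1 and 2, with 8 of 9 members read in both. Mir206 alone held 32950 and 32930 CPM of this. The highest of the Mir1a and Mir133 loci, Mir1a-2, held 51.84 and 45.25 CPM. How many reads of those loci aligned to several places was not analysed here. Markers listed for other cell types had reads as well, and whether those cells were present was not tested. Mir126a of endothelium held 80770 and 137700 CPM, the smooth muscle pair 50800 and 42140 CPM, and the 4 leukocyte genes 3182 and 2252 CPM. The 2 erythroid genes summed to 163 and 153 CPM, but Mir144 held 7.78 CPM in replicate 1 and 54.5 in replicate 2, and Mir451a 156 and 98.0. Mir122 of liver held 10.4 and 10.9 CPM, and of the 5 nerve genes matched, 3 had no read and Mir128-1 held nearly the whole level of 295 and 421 CPM. Among the 7 pluripotent cell markers Mir302a alone had reads, at 45.8 and 88.0 CPM.

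The counted level of the cluster was low and carried by a few loci. Its members held 275 reads in replicate 1 and 244 in replicate 2, or 238 CPM (exact Clopper-Pearson 95% interval 210 to 267) and 205 CPM (180 to 232). The mean was 221 ± 23.4 CPM (SD, n = 2), which is 0.0221% ± 0.00234 of the counted reads. Intervals here cover counting error only, since reads amplified by PCR are not independent molecules. No read fell on the opposite strand of any member in either library. In a bulk sample, fewer cells that make a microRNA and less of it per cell cannot be told apart.

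Reads were found for 9 of the 119 members (7.56%), against 25.8% of all microRNA genes. At 2 CPM or more in both libraries, the level at which a gene was called detected, stood 5 members (4.20%), against 14.6% of all 2202 genes. These were Mir467d, Mir467e, Mir669c, Mir669o and Mir467c, and they held 264 of the 275 reads of replicate 1 and 243 of the 244 of replicate 2. The other 110 members had no read in either library.

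Mir467d (ENSMUSG00000077021.2, chromosome 2 from 10507630 to 10507714) was the leading member by counted reads. It had 132 reads in replicate 1 and 141 in replicate 2, or 114 and 118 CPM, with a mean of 116 ± 2.90 (SD, n = 2), and ranked 126th of all microRNA genes. In CPM over total counts the libraries lay close together, whereas with the TMM sizes of the library comparison replicate 2 stood 1.28-fold higher (95% interval 1.00 to 1.64). Mir467d alone made up 48.0% of the cluster's reads in replicate 1 (exact interval 42.0 to 54.1) and 57.8% in replicate 2 (51.3 to 64.1).

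Mir467e (ENSMUSG00000076948.2, 10505721 to 10505807) came next, with 50 and 49 reads, or 43.2 and 41.1 CPM, a mean of 42.1 ± 1.51 (SD, n = 2). Its interval in replicate 1, 32.1 to 57.0 CPM, and in replicate 2, 30.4 to 54.3, lay below that of Mir467d in both libraries (95.4 to 135 and 99.5 to 139). The hairpins of these neighbours were the closest pair among the detected members, at 92.0% identity. Mir467c (ENSMUSG00000077049.2, 10473931 to 10474027), on the other side of the tandem block, had 11 and 15 reads, or 9.50 and 12.6 CPM, a mean of 11.0 ± 2.17 (SD, n = 2). It shared 83.5% identity with each of Mir467d and Mir467e. The miR-467 family has been studied in the mouse for its control of thrombospondin in blood vessels.

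The Mir669 genes belong to a family in which some members have been described as repressors of the muscle regulator MyoD in heart progenitors. Mir669c (ENSMUSG00000076118.1, 10509296 to 10509404) had 35 reads in replicate 1 and 20 in replicate 2, or 30.2 and 16.8 CPM, a mean of 23.5 ± 9.53 (SD, n = 2). Mir669o (ENSMUSG00000077086.1, 10514300 to 10514395) had 36 and 18 reads, or 31.1 and 15.1 CPM, a mean of 23.1 ± 11.3 (SD, n = 2). Both were lower in replicate 2, and their intervals overlapped each other in each library, so neither ranked above the other. Against Mir467e, the interval of each overlapped in replicate 1 and lay below it in replicate 2. Against Mir467c, that of each lay above it in replicate 1 (at 21.1 and 21.8 CPM or more, against 17.0 at most) and overlapped it in replicate 2.

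The other 4 members with a read were at or near the limit of counting. Mir669l had 7 reads in replicate 1 and 1 in replicate 2, and so missed 2 CPM in the second library. Mir669e had 2 and 0, and Mir669h and Gm23651 1 and 0 each. No Mir466 or Mir297 gene had a read, out of 23 and 5.

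**Figure D1:**
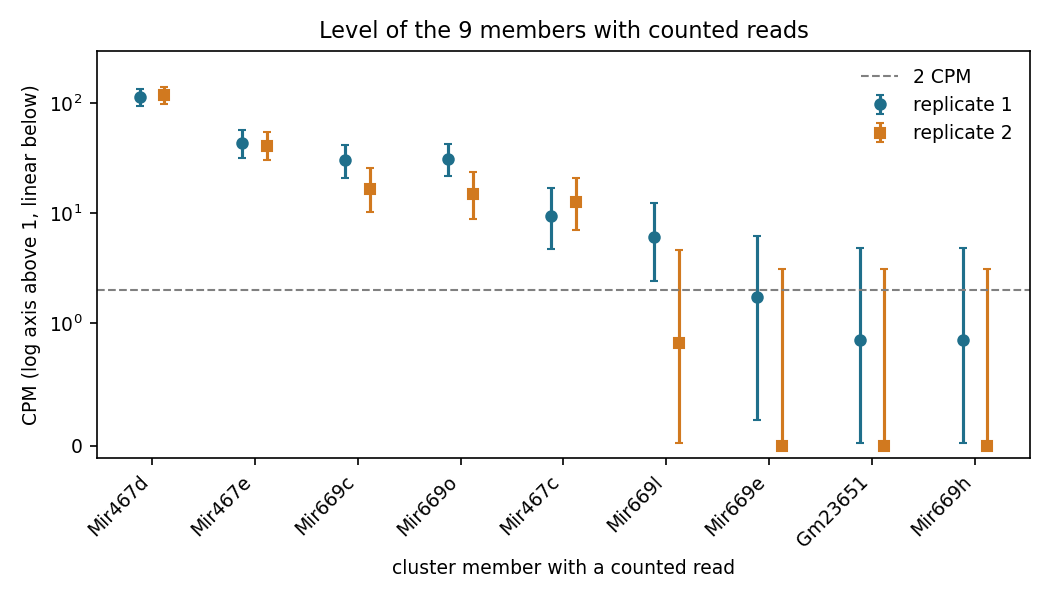
CPM of the 9 members with a read (log axis above 1 CPM, linear below), with circles for replicate 1, squares for replicate 2 and bars for the exact binomial 95% interval of counting error. Mir467d lies at 114 and 118 CPM, and the 4 members on the right are below the dashed line of 2 CPM in replicate 2.

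The reads were then set against how much of each hairpin could place a read in 1 member. For every 20-base window of a hairpin it was asked whether any microRNA gene at another place holds the same bases on either strand. Of the 119 members, 54 had no window of their own, and 0 of these 54 had a read. The other 65 had at least 1 window of their own, and all 9 members with reads were among them. None of the 47 genes with an identical hairpin had a read. By the counting rule a read that fits several places is in no gene, so for the 54 members a count of 0 does not measure their expression.

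The detected members differed in how much sequence was their own. Mir467d, the most read, had the least: 25 of its 66 windows, 19 of them on the 5′ side of the hairpin's middle and 6 on the 3′ side. Its shared windows recurred in up to 14 other genes. Mir467e had 39 of 68 windows, 20 and 19 on the 5′ and 3′ sides, and Mir467c 47 of 78, 17 and 30. Mir669c had 73 of 90 and Mir669o 39 of 77. The counts do not say which arm of a hairpin a read came from.

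Most members with sequence of their own had no read either. Of the 65 such members, 56 had no read. For these 56 the exact 95% interval of a count of 0 reached 3.19 and 3.09 CPM in replicates 1 and 2. These limits lie above the worth of 3 reads, 2.59 and 2.51 CPM, and cover only reads that fit 1 place. The set of RefSeq mature sequences used here held none for a member, so whether a window of its own lies in a mature arm was not analysed. The limits may therefore not cover the mature microRNA. Of the 56, 37 had as many windows of their own as Mir467d or more. The 3 with the most were Gm26073 with 89 of 108, Mir466l with 87 of 102 and Gm22239 with 84 of 84. Gm22239 and Mir466g, with 61 of 61, were the members that shared no window at all. Each of these 4 genes stood at 0 in both libraries.

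Reads were also uneven along the cluster. The 65 members of the block from Mir467a-1 to Mir467a-10 held 1 read in replicate 1, from Gm23651, and 0 in replicate 2, and 50 of them had no window of their own. The 54 members on either side held 274 and 244 reads, and 4 of them had no window of their own. The detected members Mir467d, Mir467e, Mir669c and Mir669o lay downstream of the block and Mir467c upstream.

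**Figure D2:**
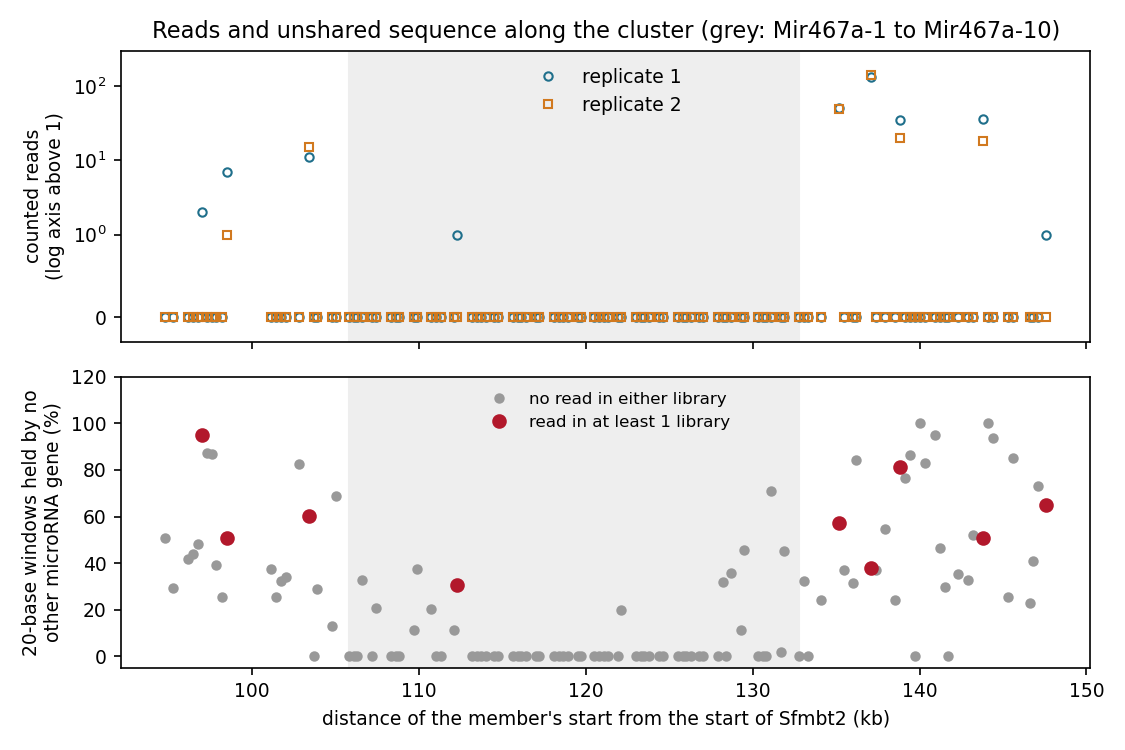
Counted reads of each member in both libraries (upper, log axis above 1) and the percentage of its 20-base windows held by no other microRNA gene (lower), against the distance of its start from the start of Sfmbt2 in kb. In the grey block, from Mir467a-1 to Mir467a-10, 50 of 65 members have no window of their own and 1 read was counted.

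The same split was made for all other microRNA genes as a reference. Of the 247 others with no window of their own, 3 had a read (1.21%), and of 317 with up to 50% of windows their own, 4 had one (1.26%), against 2 of 40 members (5.00%), which were Mir467d and Gm23651. With above 50% but not all windows their own, 95 of 406 other genes had a read (23.4%), against 7 of 23 members (30.4%). Detected at 2 CPM were 68 of these 406 (16.7%) and 4 of these 23 (17.4%). With all windows their own, 458 of 1113 other genes had a read (41.1%) and 0 of the 2 members. In the class above 50% the shares of members and of other genes thus lay near each other. Genes are not replicates, so no test was made.

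**Figure D3:**
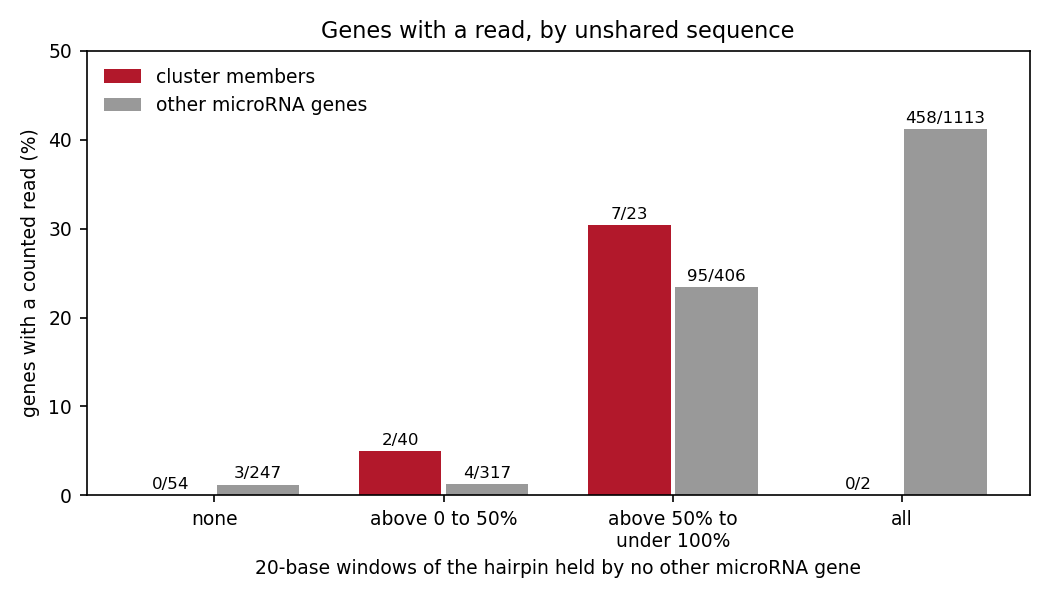
Percentage of genes with a counted read in either library, by the share of a hairpin's 20-base windows that no other microRNA gene holds, for cluster members (red) and all other microRNA genes (grey), with the counts above each bar. Members with a read were 7 of 23 where above 50% but not all windows were their own and 0 of 54 where none were.

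Another imprinted microRNA cluster, that of chromosome 12, gave far more reads. Of its 66 genes 30 were detected (45.5%) and 46 had a read, and together they held 2714 and 2060 CPM, 11.4 and 10.1 times the level of the Sfmbt2 cluster in replicates 1 and 2. Of those 66 genes, 58 had all windows their own. The Mir290 to Mir295 cluster, known in embryonic stem cells, had a read in 0 of 9 genes, with 7 of the 9 sharing no window.

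Lastly the 2 libraries were compared for each detected member, in a test that speaks of these libraries and not of conditions. Counts were set against library sizes scaled by TMM with a two-sided exact binomial test, adjusted by Benjamini-Hochberg over all 321 detected microRNA genes. Of all genes tested, 37.4% differed beyond counting error, and of the 5 members 0 did. Small differences pass at high counts, as for Mir143 with 56272 and 48711 reads at a log2 ratio of 0.05. The members had from 11 to 141 reads in a library. The count of 0 therefore does not show that members matched more closely than other genes. At an unadjusted p below 0.05 stood 1 member, Mir467d, and edgeR, run as an exact test with the dispersion set to 0.01, also called 0. Sizes taken from total counts only put the median log2 ratio of all genes at -0.30. With them 1 member was called, Mir669o, lower in replicate 2 (exact binomial adjusted p = 0.0307).

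Mir467d, at a ratio of 1.28 of replicate 2 over replicate 1, had an exact binomial adjusted p of 0.106. Mir467e was at 1.17-fold (0.776 to 1.78, exact binomial adjusted p = 0.589) and Mir467c at 1.64-fold (0.702 to 3.94, exact binomial adjusted p = 0.403). The ratio of replicate 2 over replicate 1 was 0.685 for Mir669c (0.375 to 1.22, exact binomial adjusted p = 0.38) and 0.6 for Mir669o (0.321 to 1.08, exact binomial adjusted p = 0.162). With total counts only, Mir467e lay on the other side of equality, at a log2 ratio of -0.07. The median log2 ratio of the 5 members was 0.23, against -0.01 over the 321 genes. The lower the count of a member, the wider its interval, and for Mir467c a ratio from 0.702 to 3.94 could not be told from equality at this depth.

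**Figure D4:**
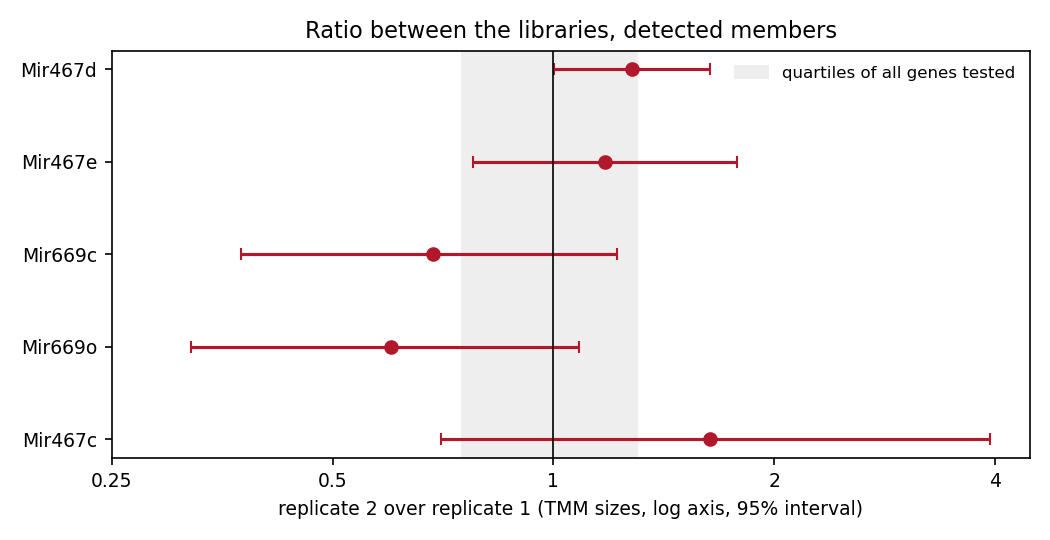
Ratio of replicate 2 over replicate 1 (log axis, TMM sizes) for the 5 detected members, with the 95% interval of counting error. The grey band runs between the quartiles of the 321 genes tested, from 0.752 to 1.30, and no member's adjusted p passed the threshold. The band was drawn from ratios with a pseudocount of 1 CPM, and the points hold no pseudocount.

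Shares within the cluster need no library scaling. The Mir467 genes held 193 of 275 cluster reads in replicate 1, or 70.2% (exact interval 64.4 to 75.5), and 205 of 244 in replicate 2, or 84.0% (78.8 to 88.4). The Mir669 genes held 81 reads, or 29.5% (24.1 to 35.2), and 39 reads, or 16.0% (11.6 to 21.2). For each family the intervals did not overlap between the libraries. Outside these families, members held 1 read in replicate 1 and 0 in replicate 2. The shares thus mirror each other and show 1 difference. Of all microRNA genes tested, 37.4% differed between the libraries beyond counting error. This split by family was chosen after the values were seen, and the intervals hold no spread beyond counting error. The Mir467 reads came from 3 genes and the Mir669 reads from 5. Of the 14 Mir467 genes 10 had no window of their own, and of the 29 Mir669 genes 13. The shares thus describe counted reads and not the whole families. As sums, the Mir467 genes stood at 1.27 times their replicate 1 level in replicate 2 with TMM sizes (1.04 to 1.56) and at 1.03 with total counts only (0.842 to 1.26). The Mir669 genes held 1.73 times their replicate 2 level in replicate 1 (1.17 to 2.61), and 2.14 times with total counts only (1.44 to 3.22). Cell type markers, those of muscle included, differed between the same libraries in the exact binomial test as well. In replicate 2 Mir144 of erythroid cells was higher by 2.95 on the log2 scale (adjusted p = 3.3e-13) and Mir126a by 1.08. Mir302a was higher by 1.23 (adjusted p = 6.7e-07) and Mir128-1 by 0.82 (adjusted p = 2.7e-15). Outside the marker list, Mir302b at 1.82, Mir302d at 3.48 and Mir302c at -2.405 passed as well. The Mir302 genes thus differed in direction, and Mir302a alone does not stand for a cell type. Of the 4 leukocyte genes Mir150 alone passed, at -0.39 (adjusted p = 1.6e-10), and Mir145a of smooth muscle stood at -0.41 (adjusted p = 1.5e-18), with Mir143 at 0.05 (adjusted p = 6.9e-09). Mir451a, at -0.36, did not pass (adjusted p = 0.0918). From the muscle list, Mir206 at 0.31, Mir499 at 0.59 and Mir208b at 0.76 passed as higher in replicate 2. Mir133a-1 at -1.58 and Mir486 at -0.17 passed as lower. Mir1a-1, Mir1a-2 and Mir133b did not pass, and Mir133a-2, below the detection level, was not tested. The part of these markers in the shares of the cluster was not tested.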

How the data were processed

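Small RNA was measured in 2 libraries of male mouse gastrocnemius. The deposited files hold raw read counts per microRNA gene, in columns for both strands, the gene's strand and the opposite strand. The text deposited beside each file names mm10 and GENCODE M21. The line names are those of STAR gene counts, but which aligner was run is not given in the sources used here. In each file 4 leading lines of totals name no gene and were left out of library sizes. Column 3, the gene's strand, was used. All 2202 identifiers matched GENCODE M21, which supplied coordinates, host transcripts and hairpins. The set of RefSeq mature sequences used here held entries for 0 of 119 members and 8 of 10 relatives. Whether RefSeq as a whole holds more was not analysed.

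The main test was the exact conditional binomial test on effective library sizes (TMM from edgeR 4.0.16, factors 1.11 and 0.899, genes at 2 CPM in both libraries), with a pseudocount of 1 CPM in log2 ratios. DESeq2 1.42.0 gave alternative size factors. R 4.3.3 and Python 3.11.15 with scipy 1.17.1 and edlib were used. The exact binomial test, with total library sizes, and the window count were tried on simulated data. The simulated counts held counting error only and no TMM step, so they do not cover the test as used. Identity is 100% less the edit distance over the longer hairpin. Windows of 20 bases shared with an overlapping gene at the same place were not counted as shared.

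Named genes were members with 10 reads or more over both libraries, Mir467e, Mir467d and Mir669c, the 3 members without a read that had the most sequence of their own, and the relatives elsewhere. Mir669l, Mir669e, Mir669h, Gm23651 and Mir466g were named after their values were seen, as were genes given for identical hairpins. The members and lists were chosen with earlier results of these data known.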

Additional observations from a re-analysis of the deposited data

How the results depend on the processing

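The mean share of the cluster, 0.0221% of counted reads, was 0.0314% with the column of both strands, 0.0266% without the most abundant gene in the denominator, 0.00409% over all reads in the file, and 0 after removal of every gene that shares a run of 20 bases, which leaves 2 members. Leaving out 1 replicate gave 0.0205% to 0.0238%. The count of 5 detected members became 0 after that removal and 9 with at least 1 read in either library, was 4 at 10 CPM and 6 with 1 read in both, and ran from 5 to 6 with 1 replicate left out. No detected member was called except with total counts only, where 1 was, and no member remained to be tested after the removal of sharing genes. Over all genes the calls numbered 120, 60 in each direction, 149 with total counts only (35 higher and 114 lower in replicate 2) and 53 with the edgeR exact test. The log2 ratio of the cluster's sum was 0.09 as reported and -0.22 with total counts only. The column of both strands summed to 832260 and 818309 reads in replicates 1 and 2. On the gene's strand the sums were 1157420 and 1193393, and no member had an opposite-strand read. Total counts only leave out the TMM factors of 1.11 and 0.899. Other causes of these shifts were not tested. The counts of 54 members with no window of their own and of 9 members with reads were the same with runs of 18 and 22 bases and, in a setting chosen after seeing the data, with windows sought in all other GENCODE M21 transcripts. Sharing with the rest of the genome was not analysed here, so a window counted as a member's own may occur elsewhere. All windows are those of mm10, and differences of the 5xFAD/CAST animals from it were not analysed. No paired analysis was possible because the series has 1 group.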
